A study of Mus musculus with 4 samples.

Results

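Notch receptors, their ligands and a pair of their target genes were examined by mRNA sequencing in medulla from mouse kidneys taken on postnatal day 14. The set was listed by gene name, with earlier results of these data known, and no threshold on measured values was used: the receptor genes Notch1, Notch2, Notch3 and Notch4, the ligand genes Jag1, Jag2, Dll1 and Dll4, and the target genes Hes1 and Hey1. All 10 were found among the 27179 genes of the deposited table. Wild-type control mice gave 2 libraries. The other 2 came from mice labelled as Actr3 knockouts, in which a floxed Actr3 gene was combined with Cdh16-Cre. All animals had a mixed C57BL/6 background. Actr3 encodes Arp3 of the actin-nucleating Arp2/3 complex, and the Cdh16 promoter drives Cre in the epithelium of tubules and collecting ducts, so vessels, mural cells and blood-derived cells are not its target. RNA came from the medulla of 2 animals of each genotype. The labels give neither the sex of the animals nor the alleles of the controls beyond wild type.

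Notch is a receptor that signals between touching cells. A ligand of the Jagged or Delta family on one cell pulls on the receptor of its neighbour, the receptor is cut first by an ADAM protease and then by gamma-secretase, and the freed intracellular part joins the DNA-binding protein RBPJ and Mastermind coactivators to switch on genes such as those of the Hes and Hey repressors. In the kidney, Notch directs the choice of the collecting duct between water-transporting principal cells and acid-base-transporting intercalated cells, with the principal fate being the one that needs the signal. In blood vessels the same pathway, with Notch1, Notch4 and Dll4 in the endothelium and Notch3 in the mural cells around it, shapes arteries and sprouts.

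The libraries held between 36482238 and 40784436 reads assigned to genes. In those labelled knockout, whole-gene counts of Actr3 were 1.63-fold higher rather than lower, and because reads from undeleted exons still count, this value is no test of the deletion or of the labelling. The groups are therefore called WT-labelled and KO-labelled, and each direction rests on those labels. Defining markers of the medullary segments were present in every library, though several were lower in the KO-labelled ones. Slc12a1 of the thick ascending limb had 239881 and 241824 normalized read counts against 39222 and 28751 (7.09-fold lower). Aqp2 of principal cells had 27437 and 34871 against 6961 and 4576 (5.40-fold lower). Umod, also of the thick ascending limb, overlapped between the groups, at 136828 and 143709 against 203680 and 138033. Proximal tubule markers were also present and varied between replicates (Slc34a1 9589 and 18429 in the WT-labelled, 1171 and 3902 in KO-labelled libraries). In whole tissue, fewer cells of a type and less RNA per cell cannot be told apart.

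Of the 10 genes, 4 were lower in the KO-labelled medulla and none was higher. They were the receptor gene Notch4 and the ligand genes Jag1, Jag2 and Dll4, tested with limma on log2(normalized count + 1) with a Benjamini-Hochberg adjusted p under 0.05. Over all 16253 genes tested, 51.2% were called, 24.9% lower and 26.3% higher, so a call in itself was common in this comparison. At an unadjusted p under 0.05 the count of higher members was also 0, and on the recovered reads edgeR and DESeq2 each called 4 lower and 0 higher. Over all genes edgeR called 51.1%, of which 25.3% lower and 25.8% higher as shares of all tested, and DESeq2 48.1%, with 23.5% lower and 24.6% higher. By library values alone, both KO-labelled libraries lay below both WT-labelled ones for 4 members and above them for 1, and 5 overlapped; over all genes the groups were apart in 78.5%, below in 38.7% and above in 39.8%. The 4 lower members all differed by more than 0.5 on the log2 scale, and 37.0% of all genes tested were called with a difference of at least that size in either direction. The median log2 change of the 10 genes, KO-labelled minus WT-labelled, was -0.25, beside 0.0029 over all genes tested. The other 6 were Notch1, Notch2, Notch3, Dll1, Hes1 and Hey1.

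**Figure D1:**
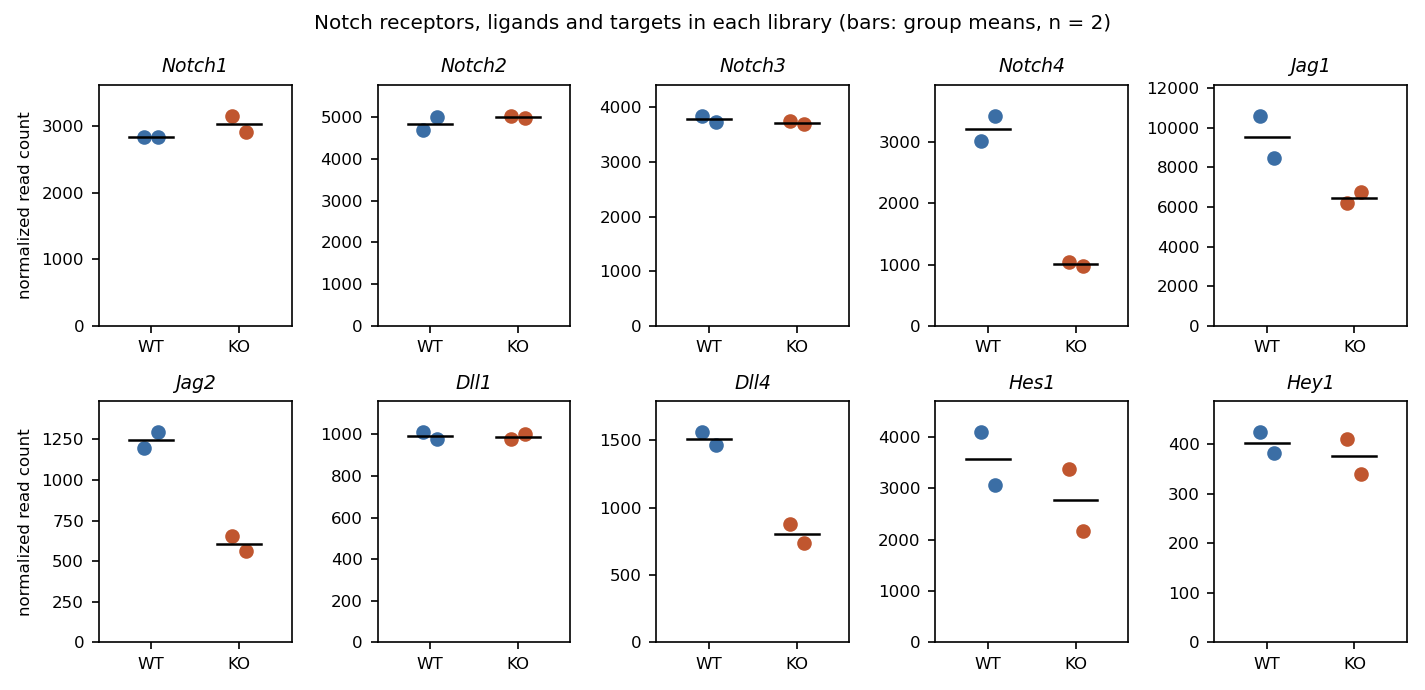
Normalized read counts (vertical axes, from 0) of the 10 genes in the 2 WT-labelled and 2 KO-labelled libraries; points are libraries and bars are group means. Notch4, Jag1, Jag2 and Dll4 have both KO-labelled points below both WT-labelled points, while Notch2, Notch3, Dll1, Hes1 and Hey1 overlap and the KO-labelled points of Notch1 lie slightly above.

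Among the receptors, Notch4 alone passed the test. Notch4 (Entrez 18132, chromosome 17, 34564286 to 34588543, GRCm38), whose product is best known from the endothelium, stood at 3018 and 3428 normalized read counts in the WT-labelled libraries and 1045 and 985 in KO-labelled ones. The groups were far apart: the higher KO-labelled value was well below the lower WT-labelled one. Group means were 3223 ± 290 and 1015 ± 41.9 (SD, n = 2), 3.18-fold apart, with a log2 change of -1.66 (SE 0.0982, limma BH-adjusted p = 3.24e-05), with a 95% interval from -1.90 to -1.43.

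Notch1 (Entrez 18128, chromosome 2, 26457902 to 26503822) is the most broadly used receptor of the family. It read 2843 and 2847 in WT-labelled and 3158 and 2911 in KO-labelled libraries, a log2 change of 0.09 with a 95% interval from -0.10 to 0.28 (limma BH-adjusted p = 0.376). Both KO-labelled values lay above both WT-labelled ones, and the gap did not pass the test.

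Notch2 (Entrez 18129, chromosome 3, 98013538 to 98150367), the receptor that the developing nephron needs for its proximal segments, read 4687 and 4989 against 5023 and 4963. Its log2 change was 0.05, with an interval from -0.13 to 0.23 (adjusted p = 0.634). Notch3 (Entrez 18131, chromosome 17, 32120820 to 32166896), the receptor of vascular mural cells, read 3837 and 3730 against 3744 and 3688, a log2 change of -0.03 with an interval from -0.20 to 0.15 (adjusted p = 0.79). The intervals of Notch1, Notch2 and Notch3 span 0 and lie apart from that of Notch4, though the difference between receptors was not itself tested.

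**Figure D2:**
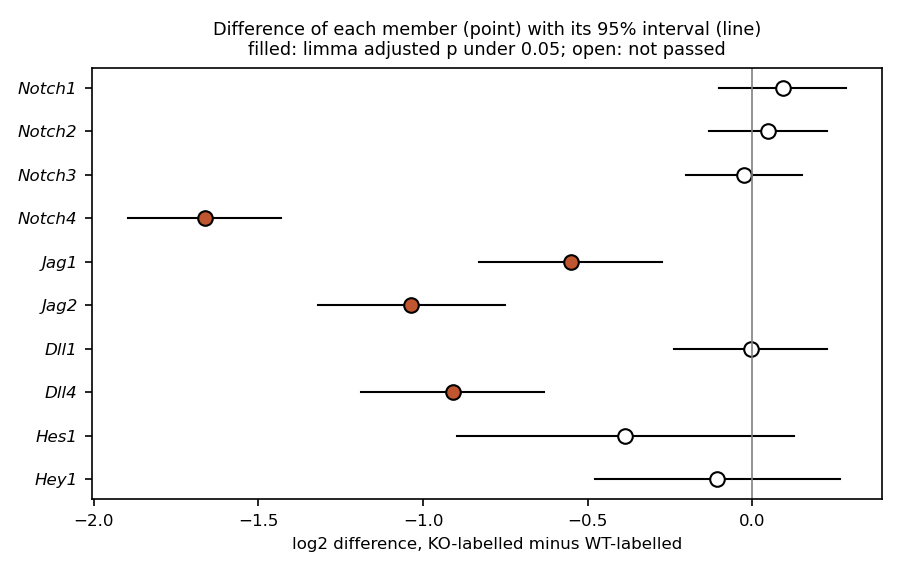
Log2 difference of each of the 10 genes, KO-labelled minus WT-labelled (horizontal axis), with the 95% interval from the limma fit as a line; filled points passed the adjusted threshold of 0.05. Notch4 stands lowest at -1.66, the 3 other receptors and Dll1 straddle 0, and Hes1 has the widest interval.

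To compare levels between genes, counts were divided by the length of the longest coding transcript of each gene in GENCODE M21. On this per-kilobase scale the WT-labelled libraries had 300 and 300 for Notch1, 446 and 475 for Notch2, 479 and 465 for Notch3 and 458 and 520 for Notch4. Notch2, Notch3 and Notch4 therefore overlapped and could not be ordered, and Notch1 was the lowest in both libraries. In the KO-labelled libraries Notch4, at 159 and 150 per kilobase, was the lowest of the 4, below Notch1 at 333 and 307. As a share of the summed receptor level per kilobase, Notch4 made up 27.2% and 29.5% in WT-labelled and 11.0% and 10.8% in KO-labelled libraries.

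The ligands, which are presented by the signalling cell, went down with 1 exception. Jag1 (Entrez 16449, chromosome 2, 137081451 to 137116520), the ligand whose loss in humans causes Alagille syndrome, had 10585 and 8453 normalized read counts in WT-labelled and 6175 and 6740 in KO-labelled libraries. Its WT-labelled values differed from each other by more than its KO-labelled ones, but the groups did not overlap. The mean fell 1.47-fold, from 9519 ± 1508 to 6457 ± 400 (SD, n = 2), with a log2 change of -0.55 (SE 0.117, limma BH-adjusted p = 0.00733) and an interval from -0.83 to -0.27. Without a variance trend across genes this call was lost (adjusted p = 0.0521), and over all alternatives the adjusted p ranged from 8.52e-05 to 0.0521.

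Jag2 (Entrez 16450, chromosome 12, 112907803 to 112929812), the second Jagged ligand, read 1195 and 1292 against 652 and 562.5. Both KO-labelled values were well below both WT-labelled ones. The mean went from 1243 ± 68.9 to 607 ± 63.4 (SD, n = 2), 2.05-fold lower, a log2 change of -1.04 (SE 0.12, limma BH-adjusted p = 0.000496).

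Dll4 (Entrez 54485, chromosome 2, 119325784 to 119335666), the Delta ligand of arterial and sprouting endothelium, read 1556 and 1464 against 876 and 735. The groups again did not overlap. Its mean fell 1.87-fold from 1510 ± 65.1 to 806 ± 100 (SD, n = 2), which is a log2 change of -0.91 (SE 0.118, limma BH-adjusted p = 0.000823).

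Dll1 (Entrez 13388, chromosome 17, 15367354 to 15376932), the Delta ligand of many embryonic tissues, was the exception. Its values of 1010 and 976 against 976 and 1002 were interleaved, and the log2 change was -0.0052 with an interval from -0.24 to 0.23 (limma BH-adjusted p = 0.969). The sign of this difference turned with the scaling. Of the exonic bases of Dll1, 20.5% overlap a long non-coding RNA gene on the other strand, so part of its count may belong to that transcript, because the strand setting of the counting is not given.

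**Figure D3:**
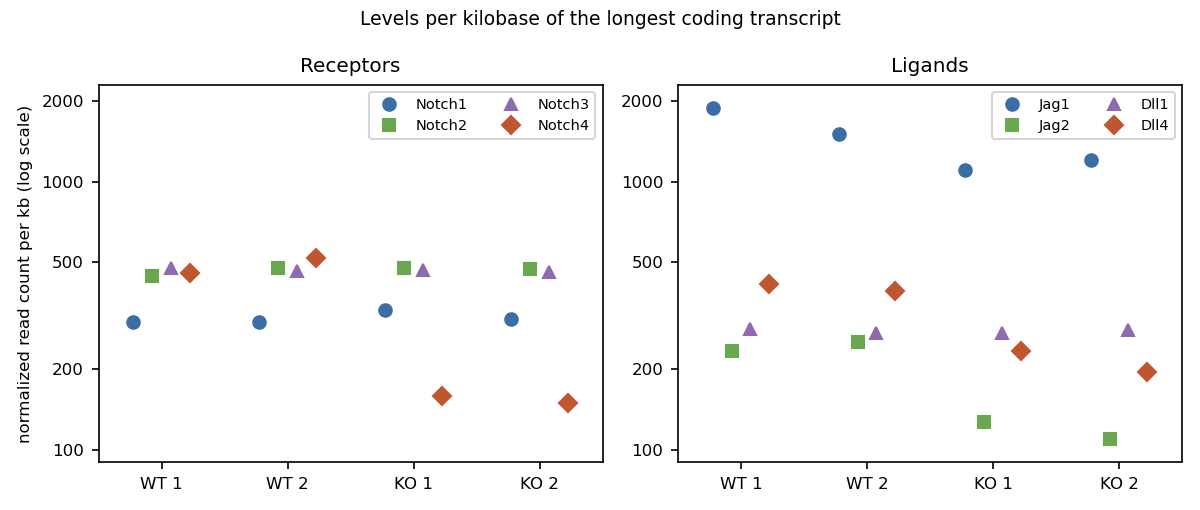
Normalized read counts per kilobase of the longest coding transcript (vertical axis, log scale) for the 4 receptors and the 4 ligands in each library. Notch4 leaves the group of Notch2 and Notch3 in KO-labelled libraries, and Dll4 moves from above Dll1 to below it.

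Per kilobase, Jag1 was the most abundant of the 4 ligands in every library, at 1886 and 1506 in WT-labelled and 1100 and 1201 in KO-labelled ones. Dll4 came second in the WT-labelled libraries with 415 and 391, above Dll1 with 282 and 273 and Jag2 with 234 and 253. In the KO-labelled libraries the order of the Delta ligands was the opposite, with Dll1 at 273 and 280 and Dll4 at 234 and 196, and Jag2 was the lowest at 128 and 110. The summed ligand level per kilobase was 2817 and 2423 against 1734 and 1787. The share of Jag1 in that sum was 66.9% and 62.2% in WT-labelled and 63.4% and 67.2% in KO-labelled libraries, ranges that overlap.

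The 250 bases before the starts that the RefSeq promoter table uses for Notch4 and Dll4 are shown. The pair was picked as a receptor and a ligand of the endothelium that were both called lower. Notch1, also named above for the endothelium, was not called. The sequences are RefSeq sequences of GRCm38.p6, both on the plus strand, 5′ to 3′. For Notch4 the RefSeq promoter table uses a start slightly downstream of the first base of the gene given above, so the last few bases of its window lie within the gene as placed there. Capitals mark AGGAAG in either orientation, a core bound by ETS factors, which are regulators of endothelial genes, and CACNAG, the N-box bound by Hes repressors. The ETS core was chosen for the search after the values were seen.
Notch4, chr17:34564045-34564294: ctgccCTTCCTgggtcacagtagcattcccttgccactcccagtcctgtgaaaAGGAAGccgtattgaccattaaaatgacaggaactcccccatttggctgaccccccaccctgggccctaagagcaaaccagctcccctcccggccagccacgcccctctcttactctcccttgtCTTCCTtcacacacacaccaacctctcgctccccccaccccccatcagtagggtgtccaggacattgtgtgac
Dll4, chr2:119325534-119325783: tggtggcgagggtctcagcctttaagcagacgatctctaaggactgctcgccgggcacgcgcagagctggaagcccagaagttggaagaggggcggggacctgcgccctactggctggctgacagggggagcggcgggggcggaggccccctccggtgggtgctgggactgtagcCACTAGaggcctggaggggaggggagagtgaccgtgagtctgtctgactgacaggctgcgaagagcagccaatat

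The upstream sequence of Notch4 holds 3 copies of AGGAAG and that of Dll4 none, while Dll4 holds 1 N-box and Notch4 none. Promoters were matched for 8 of the 10 genes, in 9 windows of 300 bases that run from 250 before to 50 after the start; Hes1 and Hey1 were not matched. AGGAAG was found on either strand in 2 of these 9 windows and in 35.4% of all 32851 windows of the table. CACNAG was found in 5 of the 9 and in 42.5% of all windows. TGGGAA, the core of the RBPJ site, was found in none of the 9 and in 25.6% of all windows. These are matches of letters only, and no binding was measured.

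The target genes did not pass the test. Hes1 (Entrez 15205, chromosome 16, 30065357 to 30067796), the repressor that is the standard readout of Notch activity and is needed for the principal cell fate, read 4089 and 3065 in WT-labelled and 3376 and 2174 in KO-labelled libraries. The replicates of each group lay further apart than the group means, and the groups overlapped. The means were 3577 ± 723 and 2775 ± 850 (SD, n = 2), which is a log2 change of -0.39 (SE 0.216, limma BH-adjusted p = 0.176) with an interval from -0.90 to 0.13. Without KO replicate 1 the log2 change was -0.70 and passed (adjusted p = 0.00778), and without KO replicate 2 it was -0.07 (adjusted p = 0.764), so this value turns on which KO-labelled library is kept.

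Hey1 (Entrez 15213, chromosome 3, 8663359 to 8667038), a target in endothelium and other tissues, was the least abundant of the 10 genes by read count, at 424 and 383 against 411 and 340. The groups overlapped, and the log2 change was -0.11 with an interval from -0.48 to 0.27 (limma BH-adjusted p = 0.596).

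The rest of the Notch family of repressors was measured too, from a list of 8 further Hes and Hey genes, of which 5 were abundant enough to be tested. Hey2, an arterial target of Notch, fell: it read 199 and 210 in the WT-labelled against 51.5 and 62.2 in KO-labelled libraries, 3.60-fold lower, with a log2 change of -1.83 (SE 0.223, limma BH-adjusted p = 0.000623). Heyl, a target known from vascular mural cells, rose from 782 and 627 to 1069 and 1106, a log2 change of 0.63 (SE 0.132, adjusted p = 0.0068). The 3 Hey genes thus had 3 different outcomes, with Hey2 lower, Heyl higher and Hey1 not called. Hes6, which antagonises Hes1, and the low-count Hes7 and Hes2 had log2 changes of 0.19, -0.15 and 1.28 and were not called; Hes2 was called without KO replicate 1 (adjusted p = 0.0478). Hes3 and Hes5 had at most 5 reads in any library. Helt had 0 reads in each library, which allows up to 3 reads, equal to 2.83 to 3.22 normalized counts.

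Beyond the Hes and Hey genes, the pathway was followed through 50 genes in 6 roles, from the ligand side to the nucleus. With the Hes and Hey genes this list had 58 genes, of which 53 were tested, 13 were higher and 15 lower. That share is close to the 51.2% of all genes called, and the median log2 change was 0.06, so the list as a whole did not stand out from the other genes in count or direction. Its members differed in direction within nearly every role.

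**Figure D4:**
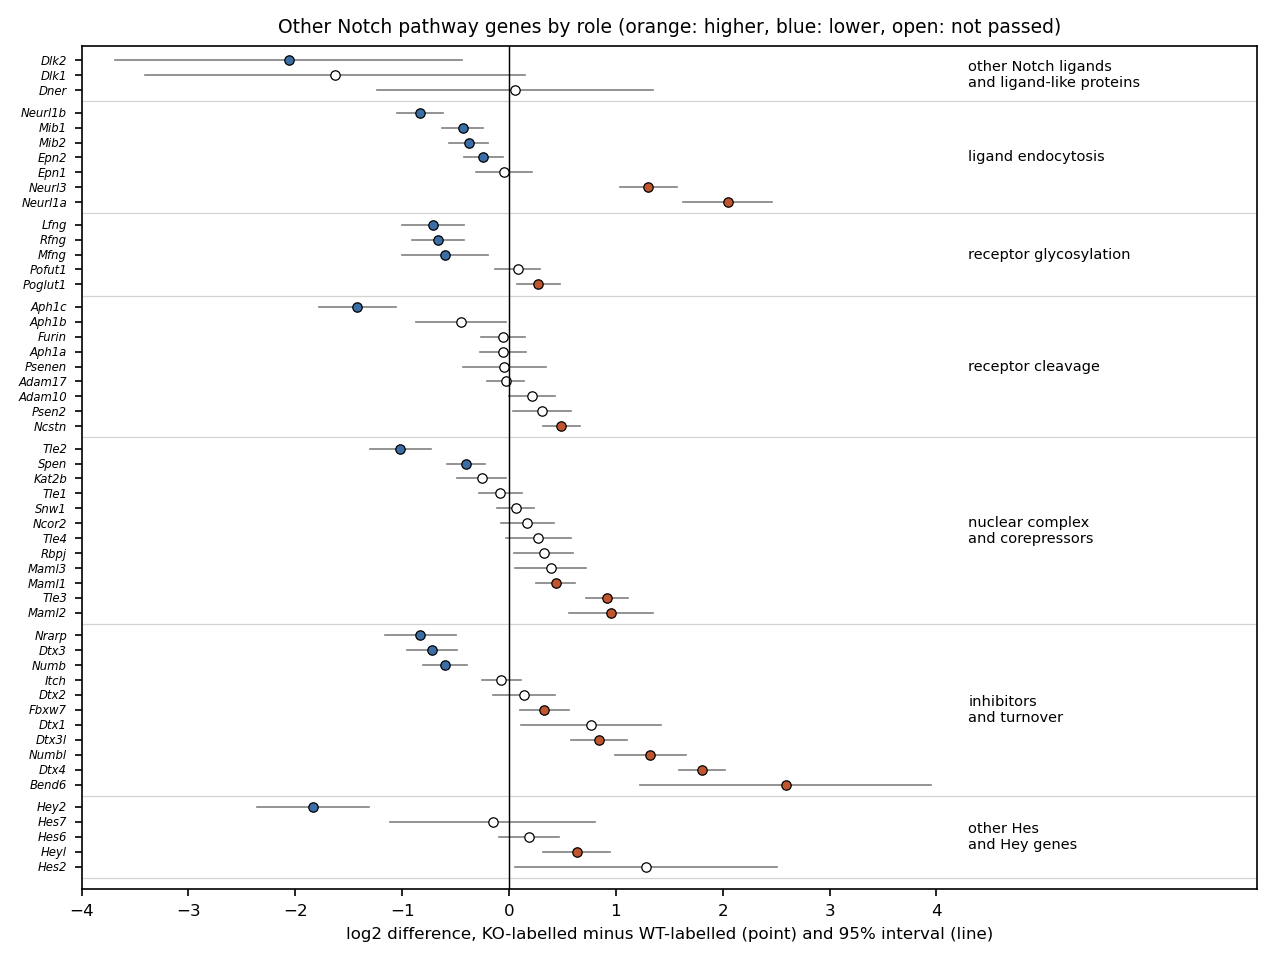
Log2 differences, KO-labelled minus WT-labelled (horizontal axis), of tested pathway genes outside the 10 members, grouped by role, with 95% intervals as lines; orange points were higher, blue points lower and open points not called. Each role except that of the ligand-like proteins holds both orange and blue points.

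Ligands work only when the cell that carries them pulls them in by endocytosis, after ubiquitin ligases of the Mind bomb and Neuralized families have tagged them. Of 7 genes in this role, 4 fell and 2 rose. Mib1, the main ligase of this kind in mammals and one that the collecting duct needs for its principal cells, read 2988 and 2957 against 2128 and 2273, a log2 change of -0.43 (SE 0.0808, limma BH-adjusted p = 0.00412). Mib2 fell by a similar log2 change of -0.38 (adjusted p = 0.00657).

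The Neuralized genes went apart. Neurl1b, the most abundant of them by read count, fell from 4930 and 4971 to 2971 and 2595, a log2 change of -0.83 (limma BH-adjusted p = 0.000367). Neurl1a rose from 227 and 303 to 1180 and 998, 4.11-fold, a log2 change of 2.05 (SE 0.176, adjusted p = 0.00014). Neurl3, a related ligase gene, rose 2.47-fold from 597 and 573 to 1541 and 1352. Epn2, an epsin that links cargo to clathrin, had a log2 change of -0.24 (adjusted p = 0.0387). In limma that call was lost without a filter on low values (0.0514) and with quantile normalization (0.0563). It was also lost without a variance trend (0.109) and with the replicate block (0.0981). The same happened without WT replicate 1 (log2 change -0.19), KO replicate 1 (-0.22) or KO replicate 2 (-0.26). Its relative Epn1 was not called (-0.04).

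Sugars added by Fringe enzymes change which ligand a receptor prefers, and all 3 Fringe genes fell. Lfng read 1867 and 2287 against 1340 and 1189, a log2 change of -0.71 (SE 0.124, limma BH-adjusted p = 0.00308). Rfng read 1232 and 1356 against 815 and 819 (log2 change -0.66, adjusted p = 0.00184). Mfng read 608 and 831 against 450.5 and 489 (log2 change -0.60, adjusted p = 0.0236). That call was lost in limma without a variance trend (adjusted p = 0.0708). It was also lost without WT replicate 2 (log2 change -0.37) or KO replicate 1 (-0.54). The enzymes that put the first sugars on the receptor did not follow: Pofut1 was not called (0.08), and Poglut1 was higher by 0.28 (adjusted p = 0.031). The Poglut1 call was lost in limma without a variance trend (adjusted p = 0.0881) and with the replicate block (0.0716). It was also lost without WT replicate 1 (log2 change 0.21), KO replicate 1 (0.28) or KO replicate 2 (0.27).

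Most genes for the proteases that cut the receptor were not called, with 8 of 10 in that class. Among these were Furin and Adam17, with log2 changes of -0.05 and -0.03. Adam10, the protease that cuts ligand-bound Notch, read 8608 and 7496 against 9415 and 9244 (log2 change 0.22, adjusted p = 0.0818), and was called without WT replicate 1 (adjusted p = 0.0346). Within gamma-secretase, Ncstn (nicastrin) rose from 6273 and 6388 to 9090 and 8708, a log2 change of 0.49 (SE 0.0733, limma BH-adjusted p = 0.00157). Aph1c fell from 1265 and 1235 to 538 and 404, a log2 change of -1.42 (adjusted p = 0.000366). Its near-identical neighbour Aph1b read 1326 and 1325 against 1179 and 799, a log2 change of -0.45 that passed only without KO replicate 1 among the left-out libraries (adjusted p = 0.00292), and reads may have been split between the pair, so both values are uncertain.

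In the nucleus, 3 of 12 tested genes rose and 2 fell; without WT replicate 1 the number that rose was 6. Maml1 and Maml2, which encode Mastermind coactivators, rose, Maml2 from 904 and 646 to 1569 and 1408 (log2 change 0.96, SE 0.166, limma BH-adjusted p = 0.003) and Maml1 from 2617 and 2536 to 3409 and 3563 (log2 change 0.44, adjusted p = 0.00342). Maml3 had a log2 change of 0.39 (adjusted p = 0.0528; 0.0119 without WT replicate 1). Rbpj itself read 1877 and 1549 against 2034 and 2250, a log2 change of 0.33 that lay just outside the threshold (adjusted p = 0.0515) and inside it without WT replicate 1 (0.0237); the mouse genome also holds Rbpj pseudogenes that can share its reads. Rbpj also passed with TMM scaling (0.0488) and Maml3 with DESeq2 (0.0465), so both lie at the threshold. Tle4 was not called (log2 change 0.28, adjusted p = 0.114) and passed without WT replicate 1 (0.0333).

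The corepressors that Hes proteins recruit, the Groucho family, had opposite members. Tle3 rose from 2867 and 3190 to 5684 and 5712, 1.88-fold, a log2 change of 0.91 (SE 0.0833, limma BH-adjusted p = 0.00018). Tle2 fell from 1041 and 1148 to 574 and 508, 2.02-fold lower, a log2 change of -1.02 (SE 0.121, adjusted p = 0.000566). Spen, which represses through RBPJ, fell by a log2 change of -0.40 (adjusted p = 0.00426). The acetyltransferase gene Kat2b had a log2 change of -0.26 (adjusted p = 0.0607), called without WT replicate 2 (0.0252).

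Genes that restrain or recycle the receptor gave 5 rises and 3 falls among 11. Numb and Numbl encode related inhibitors and moved in opposite directions: Numb fell from 1924 and 1939 to 1306 and 1245 (log2 change -0.60, limma BH-adjusted p = 0.00137), and Numbl rose from 458 and 585 to 1270 and 1320 (log2 change 1.32, adjusted p = 0.000349). Nrarp, a feedback inhibitor that is itself a direct Notch target, fell from 719 and 619 to 394 and 358, a log2 change of -0.83 (SE 0.14, adjusted p = 0.00269). An antisense gene covers 79.4% of the exonic bases of Nrarp, so its reads cannot be separated from that gene without strand.

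The Deltex ligases, which steer Notch in the endosome, held the call with the smallest adjusted p of the wider list. Dtx4 read 1472 and 1359 in WT-labelled and 4710 and 5218 in KO-labelled libraries, 3.51-fold higher, with a log2 change of 1.81 (SE 0.0912, limma BH-adjusted p = 1.82e-05). Dtx3l, which also acts with Parp9 in interferon and DNA damage responses, rose by 0.84 (adjusted p = 0.00085), while Dtx3 fell from 4842 and 5380 to 3323 and 2887 (log2 change -0.72, adjusted p = 0.00109). Dtx1 had a log2 change of 0.77 (adjusted p = 0.0528; 0.0286 without WT replicate 2). Bend6, a corepressor of RBPJ, rose at low counts from 9.85 and 2.98 to 32.2 and 46.2 (log2 change 2.59, adjusted p = 0.00886). Fbxw7, the ligase that marks the freed intracellular part for breakdown, had a log2 change of 0.33 (adjusted p = 0.0265). Its call was lost in limma without a variance trend (adjusted p = 0.0562) and with the replicate block (0.0635). It was also lost without WT replicate 2 (log2 change 0.28), KO replicate 1 (0.37) or KO replicate 2 (0.30).

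Of the remaining ligand-like genes, Dlk2 was called lower at low counts, 31.5 and 31.8 against 15.02 and 2.83 (log2 change -2.06, limma BH-adjusted p = 0.041). That call was lost with DESeq2 (adjusted p = 0.0965), and in limma without a variance trend (0.0968) or without a filter on low values (0.0743). It was also lost without WT replicate 1, WT replicate 2 or KO replicate 2. Dlk1 read 22.7 and 49.7 against 4.29 and 22.6 (adjusted p = 0.11) and was called lower without KO replicate 2 (adjusted p = 0.00434). Dner was not called, and Dll3 had at most 1 read in any library.

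Markers of several cell types moved in the same libraries. Which cells carried the Notch transcripts was not measured. All 12 endothelial markers were lower, with a median log2 change of -1.33 and a range from -2.18 to -0.96. Their summed normalized counts were 105500 and 107510 in WT-labelled and 38563 and 36672 in KO-labelled libraries, 2.83-fold lower. Notch4, at -1.66, and Hey2, at -1.83, lay within that range, Jag2 lay near its upper end at -1.04, and Dll4 lay just above it at -0.91. The other members lay above the endothelial range as well, among them Jag1 at -0.55 and Notch1, also named above for the endothelium, at 0.09. A place in this range is not particular to endothelium. Notch4, Hey2, Jag2 and Dll4 also lay within the wider ranges of principal cell (-2.93 to 0.05) and intercalated cell markers (-5.75 to 0.34). The same held for thick ascending limb (-6.43 to 0.28), proximal tubule (-3.52 to -0.62) and urothelial markers (-3.45 to -0.12).

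Set against the summed endothelial markers, Notch4 stood at 28.6 and 31.9 counts per 1000 marker counts in WT-labelled and 27.1 and 26.9 in KO-labelled libraries. Hey2 stood at 1.89 and 1.95 against 1.34 and 1.70. Both ratios were lower in KO-labelled libraries, but by far less than the counts themselves. Plvap gave the most to the marker sum in WT-labelled libraries (26654 and 28431) and had the deepest fall of the endothelial markers (-2.18). The size of these ratios therefore depends in part on that marker. Dll4 moved the other way on this scale, from 14.8 and 13.6 to 22.7 and 20.04, and Jag2 from 11.3 and 12.0 to 16.9 and 15.3. Their fall was therefore smaller than that of the marker sum. The other members also rose on this scale, among them Notch1 from 26.9 and 26.5 to 81.9 and 79.4. Jag1 went from 100 and 78.6 to 160 and 184, and Hey1 from 4.01 and 3.56 to 10.7 and 9.27. Ratios of whole-tissue counts cannot tell fewer cells of a type from less RNA per cell. The part that vessel content plays in the values of the Notch genes was not tested.

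**Figure D5:**
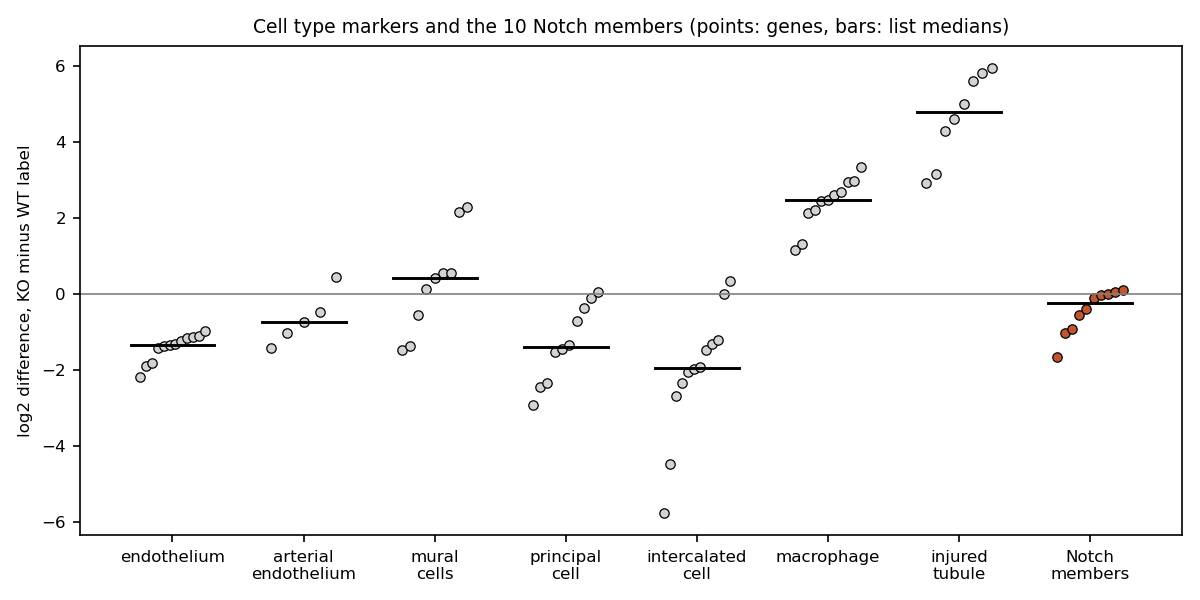
Log2 differences, KO-labelled minus WT-labelled (vertical axis), of the markers of 7 cell types or states and of the 10 Notch genes (orange); points are genes and bars are medians. Endothelial markers lie between -2.18 and -0.96, and the Notch genes between -1.66 and 0.09.

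Arterial markers were split, with Gja4, Gja5 and Sox17 lower by log2 changes of -1.02, -0.74 and -1.41, Efnb2 higher by 0.44 and Bmx not called. Mural cell markers, the setting in which Notch3 and Heyl are best known, were split as well, with 5 of 9 higher and 3 lower. The contractile genes Acta2, Tagln and Myh11 rose by 2.30, 2.16 and 0.56 on the log2 scale. Cspg4 and Mcam rose by 0.54 and 0.42, while Rgs5, Abcc9 and Kcnj8 fell by 1.38, 1.47 and 0.54. Pdgfrb was not called (0.14). An antisense gene covers 62.4% of the exonic bases of Tagln, so part of its count may belong to that gene. The summed mural level was 27686 and 31529 against 54176 and 60907. Notch3 therefore read 139 and 118 per 1000 mural marker counts in WT-labelled and 69.1 and 60.6 in KO-labelled libraries. On the same scale Heyl read 28.2 and 19.9 against 19.7 and 18.2, so its rise in counts was not seen there. Acta2 and Tagln gave the most to the mural sum in KO-labelled libraries. The part of mural cells in the values of Notch3 and Heyl was not tested.

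The 2 cell types between which Notch chooses in the collecting duct both had lower markers. Of 10 principal cell markers 8 fell and 0 rose (median log2 change -1.38), and of 12 intercalated cell markers 10 fell and 0 rose (median -1.94). Without KO replicate 2, 1 intercalated marker rose. The summed principal level was 67405 and 80296 against 25636 and 19898, and the summed intercalated level 23742 and 25694 against 9663 and 8154, 3.24-fold and 2.77-fold lower. Elf5, the principal cell transcription factor that acts downstream of Notch, read 936 and 930 against 669 and 479.5 (log2 change -0.72, limma BH-adjusted p = 0.0106). Foxi1, the intercalated cell factor that Notch keeps off in principal cells, fell to 564 and 564 from 2457 and 2248 (log2 change -2.06, adjusted p = 1.56e-05). The difference between the lists was not tested.

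Other cells of the tissue also shifted. Of 8 thick ascending limb markers 6 were lower (median log2 change -2.57 over the list), and Cldn16 was called higher (0.28, adjusted p = 0.0476). That call was lost with edgeR, with DESeq2, without a variance trend, with the replicate block and with any 1 library left out. The summed level of the 8 markers was 461575 and 482629 against 251399 and 173599. Umod, which was not called, gave the most to the sums of the KO-labelled libraries. Of 8 proximal tubule markers 7 were lower (median -2.50), with summed levels of 33058 and 42082 against 8203 and 16297; without a variance trend 4 were lower, and with a robust trend 2. All 11 macrophage markers rose, with summed levels of 11409 and 10915 against 54673 and 53735, and all 8 injured tubule markers rose, with 48943 and 52602 against 570618 and 476593. Among 7 fibroblast markers 5 rose and none fell. Urothelial markers fell in 7 of 8 cases, from summed levels of 4384 and 4189 to 1029 and 687. Of 6 T cell markers 2 rose and 1 fell, and the defining genes Cd3e, Cd3g and Cd8a had at most 32 reads in any library; without WT replicate 2, KO replicate 1 or KO replicate 2, 1 T cell marker rose. Podocyte markers had 2 of 6 lower and 1 higher, with 1 lower and 2 higher without WT replicate 2. No marker of these lists was at 0 in any library. Their part in the values of the Notch genes and of Dtx4, Numbl, Neurl1a and the other pathway genes was not tested.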

How the data were processed

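The deposited values are a signal unit: per gene and library, the authors' read count scaled by a single size factor for that library, as the values themselves show. One read is worth 0.985 and 0.994 in the WT-labelled columns and 1.07 and 0.942 in the KO-labelled columns, and dividing by these steps gave whole numbers within 0.001 for 100% of the values. The submitters' processing notes list the trimmer fastp (0.20.1), the aligner HISAT2 (2.2.1), the counter featureCounts (2.0.1) and DESeq2 (2.11.40.7). The gene annotation, strandedness and handling of multiply matching reads: not given in the sources used here.

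Entrez IDs were matched to symbols in a RefSeq table of GRCm38.p6 (25275 of 27179 matched). Genes averaging at least 10 over the libraries (16253) were tested two-sided with limma (3.58.1, R 4.3.3), using log2(value + 1), a mean-variance trend and 2 residual degrees of freedom per gene. P-values were adjusted over all genes tested by the Benjamini-Hochberg (BH) method. The added 1 makes changes of scarce transcripts look smaller; folds were computed from group means. As alternatives, edgeR 4.0.16 and DESeq2 1.42.0 were run on the recovered reads, beside other pseudocounts, filters, scalings and variance models, a block for the replicate number, and each library left out in turn; in that case the single remaining library was taken to vary as the opposite group does. The procedures were tested on simulated data in which far fewer genes changed than were called here, so that test does not cover a shift this broad.

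The replicates differed by more than counting noise (chi-square per degree of freedom 23.4 and 17.7). The p-values rest on the spread between 2 libraries a group, moderated by a variance trend over all genes tested. The median total degrees of freedom per gene were 6.96, so much of the variance estimate came from other genes. The members and lists were chosen with earlier results of these data known. The text names all 10 members, every called gene of the pathway lists and, of the marker lists, counts and examples; genes of those lists that were not called were picked for naming after their values were seen. Protein sequences were not used here. Of the pathway genes, 1 that was not called is counted but not reported here.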

Additional observations from a re-analysis of the deposited data

How the results depend on the processing

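Over 16 alternatives the 10 genes gave 160 values, of which 151 kept their direction and their side of the threshold. The 4 falls held in all of them except Jag1 without a variance trend (adjusted p = 0.0521), so the count of lower members was 3 there and 5 with the replicate block and without KO replicate 1; no member was called higher in any alternative. Hes1 passed with the replicate block (log2 difference -0.39, adjusted p = 0.0221). The labels do not say that a replicate number pairs animals, and differences between replicates 1 and 2 correlated at -0.06 across genes between the groups; under the block 12 other pathway genes were higher and 16 lower. Leaving out each library in turn, between 11 and 16 of them were higher and between 13 and 14 lower.

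The sign turned for values near 0: for Notch3 with quantile normalization (0.00018), for Dll1 with TMM (0.00068) and upper-quartile scaling (0.0022), for Dner (-0.024) and for Adam17 (0.0054) with quantile normalization. With each library left out in turn, the log2 change ran from -0.029 to 0.019 for Dll1, from -0.24 to 0.029 for Hey1, from -0.73 to 0.84 for Dner, from -0.18 to 0.093 for Epn1, from -0.13 to 0.019 for Furin and from -0.25 to 0.16 for Psenen. No called gene turned. The cause of these changes was not tested. For Hes1 the 95% interval, from -0.90 to 0.13, gives the precision that 2 libraries a group allowed.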
